A study of Danio rerio with 5 samples.

Results

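The genes described here mostly encode machinery that shortens, decaps and degrades messenger RNA, though some LSM products have other roles, described below. All were chosen by symbol, with no measured value in the rule, though earlier results of these data were known. The rule took every gene whose lower-case symbol begins with cnot, dcp1, dcp2, dcps, exosc or lsm followed by a digit where the family is numbered, or with upf1, upf2 or upf3, or equals pan2, pan3, edc3, edc4, xrn1, xrn2, ddx6 or parn. The rule found 55 of 32520 genes, which fall into 9 groups: CCR4-NOT (14 genes), PAN2-PAN3 (2), PARN (1), decapping factors (7), the LSM1 to LSM8 ring proteins (8), other LSM proteins (7), the exosome (11), the 5′-to-3′ exonucleases (2) and the UPF factors (3). RNA came from whole zebrafish embryos 4 hours after fertilisation, and 5 libraries were made. Knockdown libraries were made with RfxCas13d, a nuclease that cuts RNA matched by a guide: 1 library from embryos given a pool of 10 guides (szrd1 and 9 others) and 1 from embryos given 25 guides (szrd1 and 24 others). They were set against 3 libraries labelled as RfxCas13d controls, so the nuclease is named in the label of every library. Neither the targets of the other guides, nor whether the controls carried a guide, nor whether they came from separate clutches is stated in the labels. The p-values below therefore reflect the scatter among these libraries alone, and that scatter may be technical.

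The poly(A) tail of a messenger RNA is first shortened, mainly by the CCR4-NOT complex, which is recruited by RNA-binding proteins and microRNA-bound Argonaute, and by PAN2-PAN3. The shortened RNA is then bound by the LSM1 to LSM7 ring, loses its cap through DCP2 and its activators, and is digested from the 5′ end by XRN1, or it is digested from the 3′ end by the exosome. In zebrafish, maternal messenger RNAs are deadenylated and cleared as the embryo's own genome becomes active, which is close to the stage sampled here. Maternal and zygotic transcripts of the genes described here were not told apart in these data.

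Gene counts per library totalled 6872714 and 6528043 in the pools of 10 and 25, against 13104114, 14179837 and 5283761 in control replicates 1 to 3. The targeted transcript szrd1 had 41.3 and 45.6 CPM (counts per 1 M counts, scaled for library composition) in the pools of 10 and 25, against 221, 278 and 311 CPM in the controls, a log2 fold change of -2.63 for both pools together (SE 0.40, adjusted p = 0.232 by edgeR; 1.96e-07 to 0.948 over 12 alternatives, of which 4 called it). Control replicate 3 stood apart: 44.0% of its reads were unmapped, against 13.1% to 21.0% in the other libraries. It was also the only control made at 1/8 of the library kit's volume, the volume used for both pools, while control replicates 1 and 2 were made at 1/4. Differences from control replicate 3 alone, where given below, are differences of log2(CPM + 0.5) with no test. A fit with a term for library volume also takes the pool difference from control replicate 3, so it is not a separate result. In lists of marker genes, 6 germ cell markers summed to 1574 and 1412 CPM in the pools of 10 and 25, against 963 to 1248 CPM in the controls, and 7 enveloping layer markers summed to 1190 and 1140 CPM, against 548 to 2453 CPM in the controls, where cyt1 was at 0 in control replicate 1. Yolk syncytial layer markers summed to 166 and 168 CPM in the pools, against 338, 515 and 247 CPM in control replicates 1 to 3. The genes afp4 and apoa4b.1 were at 0 in some libraries. The sum of 8 early zygotic genes was 269 and 310 CPM in the pools, against 322 to 655 CPM in the controls. That of 6 maternal mRNAs was 1815 and 1570 CPM, against 4789, 3935 and 1912 CPM in control replicates 1 to 3. The part of these shifts in the results below was not tested. In whole embryos, fewer cells of a type and less RNA per cell cannot be told apart.

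Messenger RNA of 54 of the 55 genes passed the filter on low counts. The exception was upf3a, which had no count in any library, where 3 counts correspond to between 0.252 and 0.519 CPM. None of the 54 passed edgeR's quasi-likelihood test after Benjamini-Hochberg adjustment over 16445 genes in any of 4 comparisons, in which 0% of all genes passed. With both pools against the controls, at an unadjusted p under 0.05, 2 of the 54 were higher (dcp2 and edc3; 3.97% of all genes were) and 8 were lower (LSM2, lsm7, lsm8, LSM10, lsm11, dcps, exosc5 and 1 exosc3 gene; 6.66% of all genes were). With the pool of 10 alone, 0 were higher (1.42% of all genes) and 4 lower (LSM2, lsm8, LSM10 and that exosc3 gene; 1.80% of all genes), and with the pool of 25 alone, 0 were higher (1.22%) and 4 lower (LSM2, lsm7, lsm8 and that exosc3 gene; 1.84%). DESeq2 called 3 of these 54 genes lower (LSM2, lsm8 and that exosc3 gene) and 0 higher, beside 0.377% of the 16981 genes with an adjusted p in DESeq2 that it called lower and 0.236% that it called higher (104 genes in all). Both pools lay above every control for 10 of the 54 genes (18.5%), beside 14.6% of all genes tested, and below every control for 9 (16.7%), beside 14.9% of all genes tested. These shares were close to those over all genes. Without control replicate 1, 12 were above and 9 below (22.2% and 16.7% of the 54, beside 18.7% and 19.7% of all genes). Without control replicate 2, 10 were above and 9 below (18.5% and 16.7%, beside 17.6% and 17.8%). Without control replicate 3 the shares were further from those over all genes, with 26 above and 24 below (48.1% and 44.4%, beside 31.2% and 33.4%). Against control replicate 3 alone 22 were above and 18 below (40.7% and 33.3% of the 54, beside 36.5% and 36.7% of all genes). Control replicate 3 itself was above control replicates 1 and 2 for 25 of the 54 and below both for 26. These are 46.3% and 48.1%, beside 39.2% and 42.5% of all genes. Without control replicate 3, edgeR called 35 of the 54 genes, 16 higher (29.6%) and 19 lower (35.2%). It called 4210 of 17025 genes in all (11.9% higher and 12.8% lower). The controls left were then both of the other library volume. That fit also gave the lowest adjusted p of every range over alternatives given for a member gene below. Of the 12 alternatives, only 1, this fit, called cnot4b, pan3, dcp2, dcps, edc3 or LSM10. LSM2 and lsm8 were each called by 3 of the 12, and that exosc3 gene by 2. The upper end was the same in every range given below and in that of szrd1. It came from the fit without the pool of 25, which leaves 1 pool library, so it says little about a single gene.

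Transcripts of the CCR4-NOT deadenylase ranged from 4.07 to 386 TPM (transcripts per 1 M, the deposited unit scaled for length) across genes and libraries. The most abundant was cnot8, which encodes a catalytic subunit of the CAF1 type, at 289 and 386 TPM in the pools of 10 and 25, against 341, 285 and 290 TPM in the controls. Its values in the pools and the controls overlapped. Its paralogue cnot7 was lower in level, at 61.0 and 63.9 TPM in the pools of 10 and 25, against 23.0, 15.9 and 55.5 TPM in control replicates 1 to 3. Both pools were above every control for cnot7, but by only a small step above control replicate 3. Another gene, cnot9, whose product is a docking surface for RNA-binding partners, had 175 and 160 TPM in the pools, against 131, 164 and 196 TPM in the controls. It overlapped the controls in TPM but lay below all of them in CPM, at 132 and 114 CPM in the pools, against 150, 206 and 142 CPM in the controls.

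**Figure D1:**
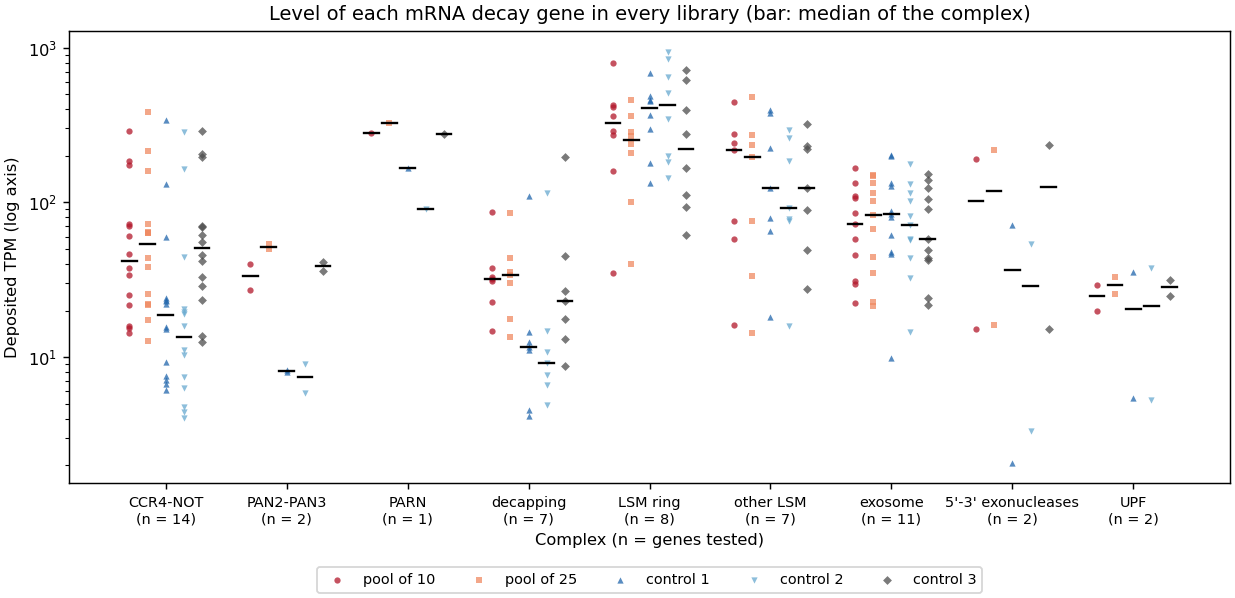
Deposited TPM of the 54 tested genes by complex, on a log axis, with 1 column per library (the pools of 10 and 25 first, then control replicates 1 to 3). Each point is a gene and each black bar the median of its complex. The LSM ring genes had the highest medians (221 to 426 TPM) of the complexes with more than 1 gene, and the CCR4-NOT, PAN2-PAN3, decapping and exonuclease medians were lower in control replicates 1 and 2 than in the other 3 libraries.

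The CCR4-type catalytic subunit gene cnot6a was below cnot8 by level in the pools, at 185 and 214 TPM, against 59.4, 44.0 and 206 TPM in the controls. Control replicate 3 lay beside the pools, and control replicates 1 and 2 were low. The paralogues cnot6b and cnot6l were at 14.4 and 12.8 TPM and at 15.9 and 17.3 TPM in the pools, against 4.75 to 12.5 TPM and 6.69 to 13.7 TPM in the controls. The scaffold gene cnot1 had 74.3 and 76.8 CPM in the pools, against 28.7, 30.7 and 103 CPM in the controls. Control replicates 1 and 2 were likewise below both pools and control replicate 3 for cnot2, cnot3a and cnot3b of the NOT module, for cnot10 of the amino-terminal module and for the ubiquitin ligase genes cnot4a and cnot4b. The largest difference was that of cnot4b, at 170 and 144 CPM in the pools, against 57.8, 43.6 and 141 CPM in the controls. The fitted log2 fold change was 0.96 (SE 0.50, adjusted p = 0.480 by edgeR; 0.00262 to 0.948 over 12 alternatives). Over the 14 genes the median log2 fold change of both pools was 0.46, with 11 above 0, beside a median of -0.08 over all genes tested. With a term for library volume, which leaves control replicate 3 to set the difference, it was -0.08. It was 0.25 without control replicate 2, 0.81 without control replicate 3 and 0.93 on log2(TPM + 1), a scale on which the median over all genes was 0.36. Against control replicate 3 alone the median difference was -0.08, with 5 of 14 above 0. Control replicate 3 itself differed from control replicates 1 and 2 by a median of 0.83, with 12 of 14 above 0.

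The nuclease gene pan2 had 57.3 and 105 CPM in the pools of 10 and 25, against 29.2, 23.0 and 77.2 CPM in control replicates 1 to 3. The gene for its RNA-binding partner, pan3, had 96.8 and 120 CPM in the pools, against 26.5, 27.4 and 92.8 CPM in the controls. The pools exceeded every control for pan3 and overlapped them for pan2. The log2 fold change of pan3 was 1.16 (SE 0.56, adjusted p = 0.469 by edgeR; 0.00176 to 0.948 over 12 alternatives), and its difference from control replicate 3 alone was 0.22. The poly(A)-specific ribonuclease gene parn had 378 and 419 CPM in the pools, against 304, 183 and 349 CPM in the controls. On the log2 scale its fold change was 0.51 (SE 0.38), and both pools were above every control. In TPM, parn was at 282 and 323 TPM in the pools, against 166, 90.3 and 277 TPM in the controls.

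Among the decapping factors both pools lay above every control for dcp1a, dcp2, ddx6 and edc3 and below every control for dcps. These are 4 of 7 above and 1 of 7 below, beside 14.6% and 14.9% of all genes tested. The catalytic subunit gene dcp2 had 44.4 and 41.1 CPM in the pools of 10 and 25, against 25.1, 20.0 and 22.0 CPM in the controls (mean 22.4 ± 2.57, SD, n = 3). The controls were close together in CPM and both pools were at least 1.64-fold above the highest of them. The log2 fold change was 0.93 (SE 0.38, adjusted p = 0.465 by edgeR; 0.0440 to 0.948 over 12 alternatives), and the difference from control replicate 3 alone was 0.94. In the deposited TPM, dcp2 was at 37.8 and 35.4 in the pools, against 12.6, 9.18 and 17.7 in the controls, which were less close together. The gene edc3, an enhancer of decapping that binds DCP2, had 78.1 and 72.0 CPM in the pools, against 30.6, 26.9 and 53.8 CPM in the controls. Its fitted log2 fold change was 1.02 (SE 0.42, adjusted p = 0.465 by edgeR; 0.00530 to 0.948 over 12 alternatives), and the difference from control replicate 3 alone was 0.47.

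The scavenger decapping gene dcps, whose product hydrolyses the short capped remnant left by the exosome, was low in the pools. It had 133 and 127 CPM in the pools, against 223, 234 and 259 CPM in the controls (mean 239 ± 18.5, SD, n = 3). Both pools were at least 1.67-fold below the lowest control. The log2 fold change was -0.88 (SE 0.35, adjusted p = 0.465 by edgeR; 0.0205 to 0.948 over 12 alternatives), and the difference from control replicate 3 alone was -0.99. In the deposited TPM, dcps was at 86.6 and 85.3 in the pools, against 110, 114 and 196 in the controls. The groups did not overlap on that scale either.

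**Figure D2:**
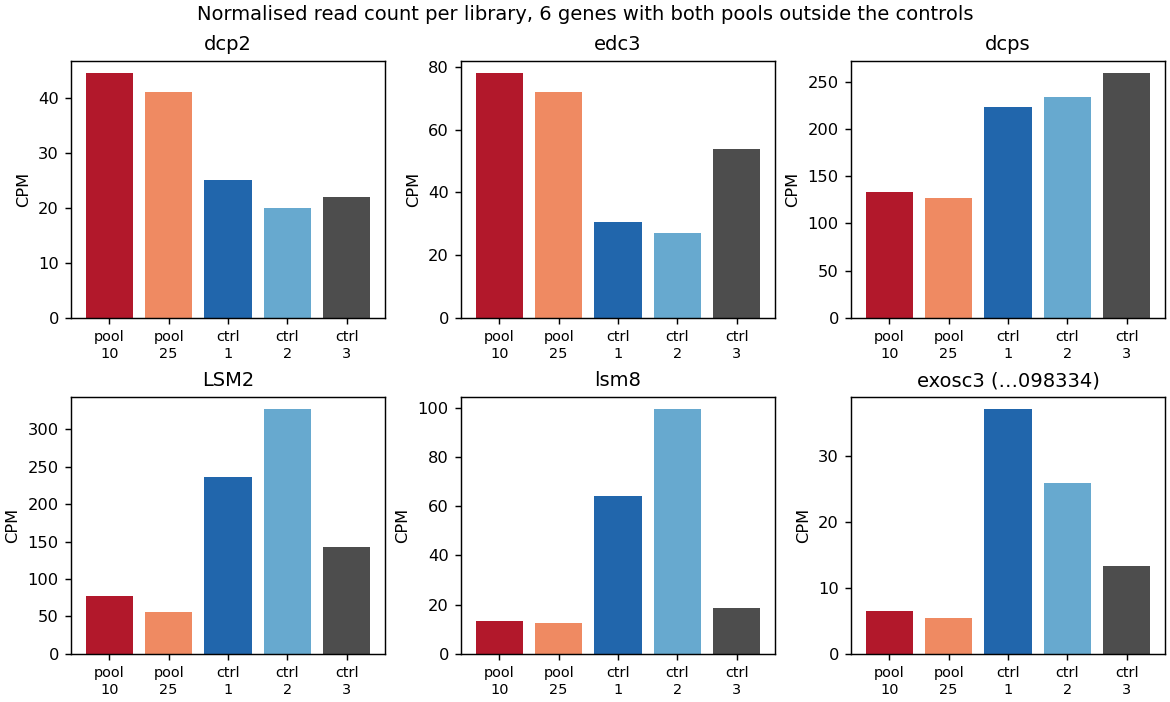
Normalised read count (CPM, linear axis from 0) of dcp2, edc3, dcps, LSM2, lsm8 and the exosc3 gene ENSDARG00000098334, with 1 bar per library in the order pool of 10, pool of 25 and control replicates 1 to 3. For dcp2 and edc3 both pools stand above all controls (44.4 and 41.1 CPM against 20.0 to 25.1 CPM for dcp2), and for the other 4 genes both stand below them.

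The decapping activator genes dcp1a and dcp1b had 68.1 and 47.5 CPM and 20.5 and 16.3 CPM in the pools. In the controls dcp1a had 21.9, 40.5 and 40.3 CPM and dcp1b had 22.7, 10.8 and 10.6 CPM. The pools exceeded the controls for dcp1a and overlapped them for dcp1b. The helicase gene ddx6, whose product links deadenylation to decapping and translational repression, had 107 and 102 CPM in the pools, against 55.3, 81.3 and 90.4 CPM in the controls, with no overlap. The scaffold gene edc4 had 131 and 177 CPM in the pools, against 32.1, 53.5 and 171 CPM in the controls, with control replicate 3 between the pools. Over the 7 decapping genes the median log2 fold change was 0.76, with 6 above 0. Against control replicate 3 alone it was 0.47, with 5 above 0, beside 0 over all genes tested. Control replicate 3 itself differed from control replicates 1 and 2 by a median of 0.43, with 5 of 7 above 0.

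The LSM ring genes held the largest summed TPM of the 9 groups, at 2750 and 1960 TPM in the pools, against 3063, 3798 and 2440 TPM in the controls. LSM1 caps the cytoplasmic ring that acts in decay, LSM8 replaces it in the nuclear ring of U6 small nuclear RNA, and LSM2 to LSM7 are shared by both. All 8 genes had a negative log2 fold change of both pools against the controls (median -1.13). The median was 0.16 with the volume term, -0.74 without control replicate 2 and -1.55 without control replicate 3. On log2(TPM + 1) it was -0.31, beside 0.36 over all genes. Against control replicate 3 alone 4 of 8 were above 0 (median 0.13). Control replicate 3 was itself below control replicates 1 and 2 for 8 of 8 (median -1.60). The shared subunit gene LSM2 had 77.7 and 56.4 CPM in the pools, against 236, 327 and 143 CPM in the controls. Both pools were at least 1.85-fold below the lowest control, which was control replicate 3. The log2 fold change was -1.81 (SE 0.46, adjusted p = 0.464 by edgeR; 0.00176 to 0.948 over 12 alternatives), and the difference from control replicate 3 alone was -1.11. In the deposited TPM, LSM2 was at 363 and 286 in the pools, against 688, 840 and 714 in the controls.

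The nuclear ring gene lsm8 had 13.4 and 12.3 CPM in the pools, against 64.4, 99.5 and 18.7 CPM in the controls. Its log2 fold change of -2.25 (SE 0.65, adjusted p = 0.464 by edgeR; 0.00173 to 0.948 over 12 alternatives) was carried mostly by control replicates 1 and 2, since the difference from control replicate 3 alone was -0.53. Its cytoplasmic counterpart lsm1 had 146 and 111 CPM in the pools, against 239, 176 and 59.9 CPM in the controls, so that the pools lay between control replicate 3 and the other controls. The gene lsm7 had 211 and 113 CPM in the pools, against 338, 674 and 189 CPM in the controls, and lsm5 had 38.8 and 36.5 CPM, against 98.3, 113 and 30.5 CPM. For both genes the pools lay below control replicates 1 and 2, while control replicate 3 lay between the pools for lsm7 and below them for lsm5. The genes lsm3 and lsm6 had 145 and 86.9 CPM and 82.5 and 58.6 CPM in the pools, against 89.1 to 262 CPM and 49.2 to 229 CPM in the controls. The gene lsm4 had 291 and 167 CPM in the pools of 10 and 25, against 238, 240 and 226 CPM in the controls, so the pools lay on opposite sides of the controls.

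The other LSM genes are taken here by product. LSM10 and LSM11 belong to the U7 particle that processes histone messenger RNA. LSM10 had 5 and 10 counts in the pools of 10 and 25, against 110, 124 and 10 counts in the controls, or 0.675 and 1.37 CPM against 9.36, 10.4 and 1.73 CPM. The fitted log2 fold change was -2.81 (SE 0.93, adjusted p = 0.464 by edgeR; 0.00609 to 0.948 over 12 alternatives), with control replicate 3 near the pools. Next, lsm11 had 43.6 and 42.6 CPM in the pools, against 111, 90.6 and 53.0 CPM in the controls, with no overlap. The LSM14 proteins are translational repressors of cytoplasmic granules that bind DDX6. The gene lsm14b was the most abundant of them at 443 and 478 TPM in the pools, against 396, 261 and 320 TPM in the controls. In CPM it overlapped the controls, at 405 and 407 CPM in the pools, against 555, 395 and 277 CPM in the controls. Its log2 fold change was -0.01 (SE 0.38). The gene lsm14aa had 335 and 259 CPM in the pools, against 137, 140 and 254 CPM in the controls, and lsm14ab had 105 and 63.2 CPM, against 56.9, 54.2 and 91.6 CPM. The gene lsm12a had 240 and 203 CPM in the pools, against 380, 345 and 137 CPM in the controls. Its paralogue lsm12b had 168 and 167 CPM, against 375, 310 and 155 CPM. For both, control replicate 3 was the lowest library.

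The exosome genes had a median log2 fold change of -0.80, with 2 of 11 above 0. The median was 0.10 with the volume term, -0.56 without control replicate 2 and -1.12 without control replicate 3. On log2(TPM + 1) it was -0.18, beside 0.36 over all genes. Against control replicate 3 alone the median difference was 0.10, with 6 of 11 above 0. Control replicate 3 was below the mean of control replicates 1 and 2 on the log2 scale for 10 of 11 (median -1.20). For exosc1 it lay between them. Of the cap subunit genes, exosc2 was the most abundant, at 133 and 134 TPM in the pools, against 202, 178 and 140 TPM in the controls. The cap subunit gene exosc1 was one of the 2 above 0, at 10.5 and 11.4 CPM in the pools, against 5.87, 8.40 and 6.92 CPM in the controls, with no overlap. The ring genes exosc4 to exosc9 ranged from 6.30 CPM for exosc5 in the pool of 25 to 145 CPM for exosc9 in control replicate 1. Among them exosc4 had 67.5 and 58.4 CPM in the pools, against 135, 84.4 and 50.7 CPM in the controls, and exosc8 had 40.0 and 51.2 CPM, against 106, 114 and 45.7 CPM. The catalytic nuclear subunit gene exosc10 had 180 and 241 CPM in the pools, against 121, 94.7 and 264 CPM in the controls, so that control replicates 1 and 2 were its lowest libraries.

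The symbol exosc3, another cap subunit, is carried by 2 genes in the deposited tables, and the counting may have divided reads between them, so both are uncertain. ENSDARG00000098334 had 6.48 and 5.47 CPM in the pools, against 37.1, 25.9 and 13.3 CPM in the controls, and both pools were at least 2.06-fold below the lowest control. Its log2 fold change was -2.09 (SE 0.55, adjusted p = 0.464 by edgeR; 0.00260 to 0.948 over 12 alternatives). ENSDARG00000104246 had 12.8 and 13.5 CPM in the pools, against 17.6, 16.1 and 6.58 CPM in the controls, with a log2 fold change of -0.03 (SE 0.53). Against control replicate 3 alone the first was at -1.10 and the second at 0.95. Summed over both genes, exosc3 had 19.3 and 19.0 CPM in the pools, against 54.7, 42.0 and 19.9 CPM in the controls, so the gap to control replicate 3 was nearly gone.

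The cytoplasmic exonuclease gene xrn1 had 43.9 and 54.3 CPM in the pools, against 13.3, 21.3 and 53.1 CPM in the controls. Its log2 fold change was 0.76 (SE 0.56) with all controls, and -0.11 with a term for library volume in the fit. The nuclear exonuclease gene xrn2 was higher by level, at 189 and 219 TPM in the pools, against 71.3, 54.1 and 234 TPM in the controls, while xrn1 was at 15.2 and 16.2 TPM in the pools, against 2.08, 3.32 and 15.2 TPM in the controls. The helicase gene upf1, central to nonsense-mediated decay, had 76.2 and 89.0 CPM in the pools, against 31.3, 28.5 and 87.4 CPM in the controls. Its log2 fold change was 0.76 (SE 0.52), and -0.08 with the volume term. The cofactor gene upf3b had 37.8 and 38.6 CPM in the pools, against 70.7, 80.9 and 40.5 CPM in the controls, with no overlap but control replicate 3 close to the pools.

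**Figure D3:**
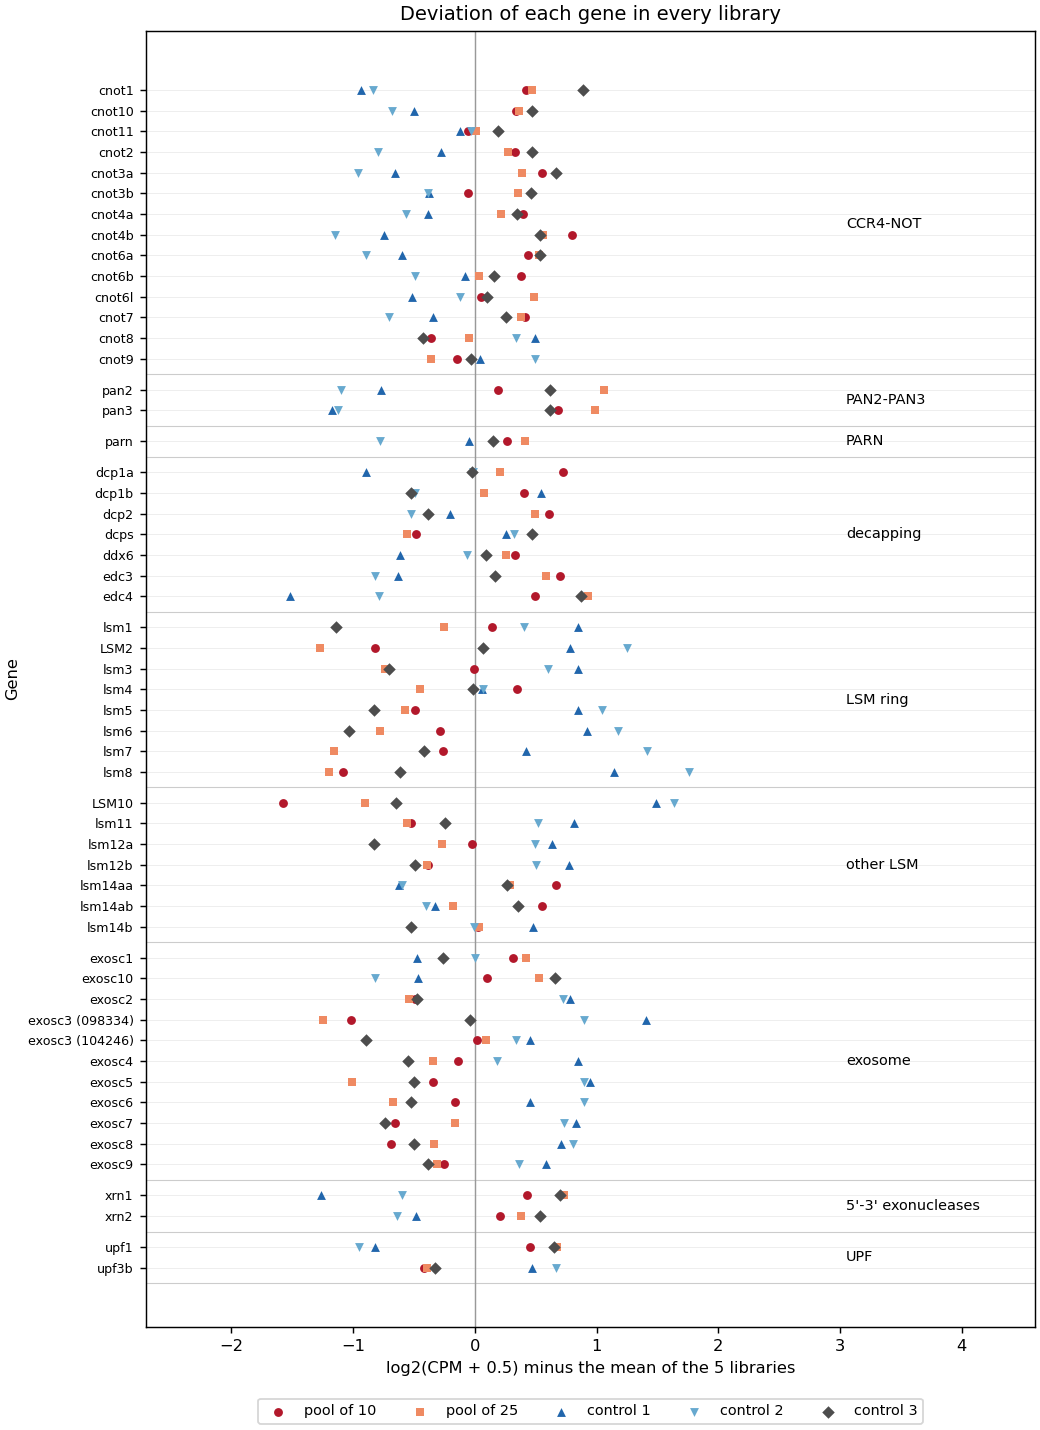
Deviation of each of the 54 genes from its mean over the 5 libraries, as log2(CPM + 0.5), grouped by complex, with 1 symbol per library. Control replicates 1 and 2 (blue triangles) lie left of the other libraries for most CCR4-NOT, PAN2-PAN3 and exonuclease genes and right of them for most LSM ring and exosome genes, while for dcp2 and dcps all 3 controls lie on the side opposite to both pools.

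Across the machinery, the difference ran with the ratio of a gene's counts to its TPM, relative to the median gene of the library, which could be had for 53 of the 54 genes. This ratio rises with transcript length where counts and TPM come from the same quantification, which the labels do not state. It varied between libraries by a median factor of 1.13 and by up to 2.35 (cnot1), so it is an approximate measure of length. Its median was 0.320 for the LSM ring, 0.402 for the exosome and 0.902 for other LSM genes. It was 1.10 for CCR4-NOT, 1.14 for PARN, 2.02 for PAN2-PAN3, 2.13 for decapping, 2.24 for UPF and 2.41 for the exonucleases. Among the groups of highest ratio the median log2 fold change did not rise with it. It was 1.03 for PAN2-PAN3, 0.76 for decapping and 0.57 for the exonucleases. The UPF group had 0.0045, from upf1 (0.76) and upf3b (-0.75). Spearman's rho across these 53 genes between this relative length and the log2 fold change of both pools was 0.757. It was 0.579 across the 12142 genes with at least 10 counts in every library. These are descriptions across genes that share libraries, not tests. The 26 longer genes had a median log2 fold change of 0.50 and the 27 shorter ones -0.72, beside 0.35 and -0.41 for longer and shorter genes overall. In control replicate 3 against control replicates 1 and 2, with no pool involved, rho was 0.825 for the 53 genes and 0.599 for all. In the pools against control replicate 3 alone it was -0.094 and -0.005. The part of length, library volume or unmapped reads in the differences of single genes was not tested.

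**Figure D4:**
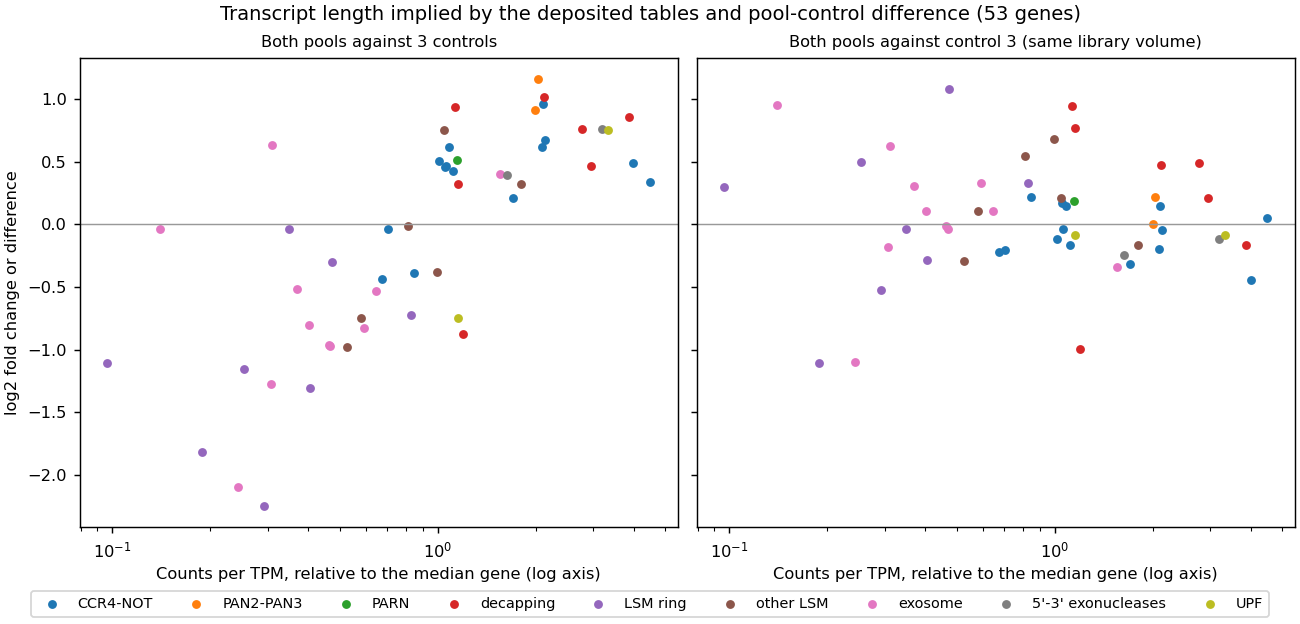
Difference of the pools from the controls (vertical axis, log2) against counts per TPM relative to the median gene, an approximate measure of transcript length (horizontal log axis), for 53 genes coloured by complex. The left panel sets both pools against all 3 controls (rho 0.757) and the right panel against control replicate 3 alone (rho -0.094), where the genes farthest from 0 are lsm1 (1.08), the exosc3 genes ENSDARG00000104246 (0.95) and ENSDARG00000098334 (-1.10), dcp2 (0.94), dcps (-0.99) and LSM2 (-1.11).

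The pool of 25 differed from the pool of 10 for 0 of the 54 genes after adjustment in edgeR's test, and 0 were under an unadjusted p of 0.05 (0.456% of all genes were higher and 0.334% lower). DESeq2 called 0 genes as well. The log2 fold changes ran from -0.90 (lsm7, SE 0.89) to 1.00 (LSM10, SE 1.52), so that differences of that size could not be resolved with 1 library per pool. All 8 LSM ring genes had fewer CPM in the pool of 25 than in the pool of 10, with log2 fold changes from -0.90 to -0.09. Their median was -0.48, beside 0 over all genes tested, of which 8120 of 16445 were above 0. The 8 genes share the same 1 library per pool and are not replicates. In TPM 7 of the 8 were lower in the pool of 25, since lsm8 was at 39.8 TPM there, against 35.0 TPM in the pool of 10. The gene pan2 was higher in the pool of 25, by 0.87 (SE 0.95). For dcp2, edc3 and dcps the pools differed little, by -0.11 (SE 0.77), -0.12 (SE 0.81) and -0.07 (SE 0.71).

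Other genes of the pathway were taken from 6 lists of 80 symbols, of which 67 genes were found and 64 tested. The symbols not found are not all missing genes, since some genes were listed under alternative symbols. The lists also held lsm14aa and lsm14ab, which were left out here because they are described above. None of the 64 passed edgeR's test with both pools against the controls. At an unadjusted p under 0.05 there were 1 higher and 2 lower of the 64 (3.97% and 6.66% of all genes tested). The pools lay above every control for 8 and below for 10 of the 64, beside 14.6% and 14.9% of all genes tested. The gene tnrc6a, whose product bridges Argonaute and CCR4-NOT, had 136 and 122 CPM in the pools, against 58.3, 51.7 and 79.5 CPM in the controls, a log2 fold change of 1.03 (SE 0.37) and a difference from control replicate 3 alone of 0.69. The exosome cofactor gene mphosph6 had 95.8 and 74.7 CPM, against 237, 481 and 115 CPM in the controls. The maternal poly(A)-binding gene pabpn1l had 353 and 74.3 CPM in the pools of 10 and 25, against 853, 791 and 285 CPM in the controls. Medians of the log2 fold change were -0.03 for deadenylation adaptors, 0.32 for exosome partners and 0.20 for decapping partners. They were 0.45 for nonsense-mediated decay and -0.58 for poly(A)-binding genes. The list of other deadenylases had a median of -0.03, but it also held tut4 (0.44), which encodes a uridylyltransferase and not a deadenylase.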

How the data were processed

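The authors deposited whole-number gene counts and a second table per library, read as TPM because its columns have equal sums; no label says how the TPM were made. Per the submitters' processing notes, reads were converted with bcl2fastq 2.20 and the build was danRer11; which aligner and counter were used is not given in the sources used here. Entries of the deposited count tables that name no gene (26.7% to 53.8% of reads) were left out. All 55 gene identifiers matched the symbol table. Coordinates and sequences are not printed.

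CPM used TMM scaling (edgeR 4.0.16, R 4.3.3). Genes passing filterByExpr (minimum count 10) were tested with edgeR's quasi-likelihood F test: both pools against controls in a 2-group fit with 3 residual degrees of freedom, each pool and the pools against each other in a 3-group fit with 2, where each single pool library is assumed to vary like the controls. Benjamini-Hochberg adjustment ran over all genes, threshold 0.05. The SE printed beside a log2 fold change is the absolute fold change on that scale divided by the square root of the test's F. Both tools were checked on simulated counts. These held no effect of library volume and no control set apart from the others, so the check does not cover those features of the data. The alternatives were DESeq2 1.42.0, other scalings, no filter, limma 3.58.1 on log2(TPM + 1) or log2(TPM + 0.1), a volume term, and leaving out libraries. Counting error alone sets the 3-count floor.

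The members and lists were chosen with earlier results of these data known. Per-library values were given for szrd1, the 3 most abundant genes of each complex, any gene called, genes with both pools at least 1.5-fold outside the controls at a mean of at least 1 CPM, and the largest fold change per complex; others named were chosen after their values were seen.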

Additional observations from a re-analysis of the deposited data

How the results depend on the processing

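Calls depended on control replicate 3 and on the tool. For both pools, DESeq2 called 104 genes, of which 3 were among the 54, and the fit with no filter on low counts called 137, of which 2 were. The library volume term gave 10 calls and none of the 54. Leaving out 1 library at a time gave 0 to 4210 calls, and 0 to 35 of the 54, the highest without control replicate 3. For the pool of 10, DESeq2 called 10 genes, no filter gave 19, and leaving out a control gave 0 to 7. For the pool of 25 these were 11, 10, and 0 to 5. None of these was among the 54. The median log2 fold change of the 54 genes, 0.10, was 0.31 with library size only, 0.63 and 0.66 with limma on TPM + 1 and TPM + 0.1, 0.038 with the volume term and -0.0048 against control replicate 3 alone, and 0.0035 to 0.19 when leaving out libraries. Library size only and TPM also moved the median over all genes, to 0.14, 0.36 and 0.45, and relative to it the members' median was 0.17, 0.27 and 0.21, against 0.18 in the reported fit. The other LSM genes had a positive median (0.25) on TPM + 1. Relative to the median over all genes it was -0.10, against -0.30 in the reported fit. With the volume term the medians of CCR4-NOT (-0.08), the LSM ring (0.16), other LSM genes (0.10), the exosome (0.10), the exonucleases (-0.18) and UPF (-0.08) had the opposite sign, while decapping (0.48), PAN2-PAN3 (0.15) and PARN (0.19) stayed above 0. That term leaves control replicate 3 as the only control that sets the pool difference. These medians therefore repeat the comparison with control replicate 3 alone. Members with both pools above every control numbered 22 against control replicate 3 alone, and those below it 18. Leaving out a control gave 10 to 26 above and 9 to 24 below. Only xrn1 (-0.11) and upf1 (-0.082) changed sign among the 12 member genes whose fold changes were followed, with the volume term. No paired analysis was possible because each pool is 1 library and carries no replicate number. Depth limits LSM10, with 5 to 124 counts per library.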

Other observations

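Counts and deposited TPM did not always move together. Over the 53 genes with at least 10 counts in every library, the ratio of counts to TPM, scaled to the median gene of each library, varied between libraries by a median factor of 1.13. For 5 genes it varied by more than 1.4: cnot1 (2.35), edc3 (1.85), cnot4a (1.68), lsm5 (1.51) and xrn1 (1.46). For cnot1, control replicates 1 and 2 had 337 and 365 counts, and 9.28 and 4.07 TPM. These genes were chosen after their values were seen.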
